A study of Homo sapiens with 32 samples.

Results

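The transcripts of 10 genes were followed in HEK293 cells, an established human embryonic kidney line, after stimulation with EGF, angiotensin II (AngII) or both. They encode the 4 receptors of the ERBB family (EGFR, ERBB2, ERBB3 and ERBB4) and 6 proteins grouped here as receptor-level inhibitors: ERRFI1, LRIG1, LRIG2, LRIG3, CBL and CBLB. An inhibiting role is described below for ERRFI1, LRIG1, CBL and CBLB only. Their rows were taken by gene name from the count tables for both time points, as 10 of 57773 genes. All cells, the controls included, had been transiently transfected with the angiotensin II receptor AT1R and were kept in medium without serum during stimulation. The groups were control, EGF (10 µg/l), AngII (1 nmol/l) and EGF+AngII, each after 6 h and after 24 h, with 4 libraries per group. EGF+AngII after 24 h had 3 libraries with counts, so 31 of 32 labelled libraries were analysed. The comparisons ask what each stimulus, and both together, did to the transcripts of the EGF receptor system. A transiently transfected culture mixes cells with different amounts of receptor plasmid, so each value is a mean over such a mixture, and the labels do not say whether libraries came from separate cultures, so p-values measure the spread between these libraries, which may be technical.

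ERBB receptors are receptor tyrosine kinases that dimerise when a ligand such as EGF binds, phosphorylate each other and signal through RAS and ERK. ERBB2 has no ligand of its own and acts as a dimerisation partner, and ERBB3 has little kinase activity. ERRFI1 (MIG6) binds the kinase domain of active receptors and blocks it. The LRIG proteins sit in the membrane, and LRIG1 lowers the level of ERBB receptors. CBL and CBLB are ubiquitin ligases that bind phosphorylated EGFR and send it to lysosomes. ERRFI1 is known as a gene that growth factors induce, which makes it a transcriptional feedback inhibitor.

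Total counts ranged from 3881841 to 8540815 per library after 6 h and from 6646227 to 33070903 after 24 h. After 6 h, 81.4 to 84.7% of counts fell on protein-coding genes. After 24 h only 20.8 to 63.4% did, and U1 small nuclear RNA took 8.90 to 57.2%. The biological coefficient of variation of the fits was 10.6% after 6 h and 29.1% after 24 h, so effects after 24 h were measured with larger errors. No replicate pair differed by less than sampling noise (chi-square per gene of at least 1.95). AGTR1, the gene of the transfected receptor, was present at 950 to 1568 FPM (fragments per 1000000, on library sizes scaled by TMM) after 6 h and at 369 to 685 FPM after 24 h. Of the HEK293 markers, NEFL, NEFM and VIM were high (at least 154 FPM in every library), KRT8 and KRT18 were at 2.10 to 15.5 FPM, and PAX2 had at most 10 counts. PTPRC, ALB, HBA1 and CDH16, markers of other cell types, had at most 8 counts in any library, and the fibroblast collagen gene COL1A1 was at 8.45 to 30.3 FPM.

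Promoter sequences are shown for EGFR and ERRFI1, since both transcripts passed the test with EGF+AngII after 6 h. They are the 250 bases before each transcription start in the set of RefSeq promoters used here (GRCh38.p14). That set holds 17 starts for 8 of the 10 genes and has no entry for ERBB3 and CBL. Both strands were searched for the SP1 GC box (GGGCGG), the AP-1 element (TGANTCA), the EGR element (GCGNGGGCG), the ETS element (CCGGAAG), the FOXO element (TGTTTAC) and the CArG box bound by SRF, and matches are in capitals. Overlapping matches were allowed. EGFR has 2 listed starts: the first lies at chr7:55018767-55019016 and the second, downstream, at chr7:55109589-55109838, both on the plus strand. The ERRFI1 window lies at chr1:8026310-8026559 on the minus strand.
EGFR, first start: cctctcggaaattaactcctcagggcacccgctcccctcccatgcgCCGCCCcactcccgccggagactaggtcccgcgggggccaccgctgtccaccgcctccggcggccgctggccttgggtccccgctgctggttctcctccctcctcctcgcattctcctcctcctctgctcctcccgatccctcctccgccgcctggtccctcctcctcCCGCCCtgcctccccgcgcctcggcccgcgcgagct
EGFR, second start: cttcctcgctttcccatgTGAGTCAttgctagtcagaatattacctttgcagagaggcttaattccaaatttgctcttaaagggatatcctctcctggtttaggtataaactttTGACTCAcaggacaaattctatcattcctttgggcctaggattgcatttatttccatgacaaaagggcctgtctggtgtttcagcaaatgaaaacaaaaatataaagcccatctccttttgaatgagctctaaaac
ERRFI1: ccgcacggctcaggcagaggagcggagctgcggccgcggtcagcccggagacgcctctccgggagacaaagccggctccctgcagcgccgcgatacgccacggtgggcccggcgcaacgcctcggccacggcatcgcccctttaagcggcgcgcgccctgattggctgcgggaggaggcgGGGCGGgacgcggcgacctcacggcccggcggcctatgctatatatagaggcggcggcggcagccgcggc
The first EGFR window had 2 GC boxes and a GC content of 73.6%, and the ERRFI1 window had 1 GC box and a GC content of 75.2%. GC boxes stand in 42.6% of the 35116 windows in the table. The second EGFR window, with a GC content of 38.8%, had 2 AP-1 elements, a match found in 6.57% of all windows. Neither gene had a CArG box (1.16% of windows) or an EGR element (8.41%) in these windows. A match of letters is a description and shows no binding.

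Levels were compared between genes per kilobase of exon (FPM divided by the union exon length of GENCODE for GRCh37). After 6 h the control libraries gave the order LRIG3 (15.7 ± 0.29), LRIG1 (13.3 ± 0.35), CBL (11.5 ± 0.81), LRIG2 (10.5 ± 0.55), ERBB2 (8.72 ± 0.84), ERRFI1 (3.76 ± 0.33), ERBB4 (3.68 ± 0.25), EGFR (2.86 ± 0.31), CBLB (2.33 ± 0.39) and ERBB3 (0.221 ± 0.119 FPM per kb; mean ± SD, n = 4). By this measure LRIG1 to LRIG3 and CBL stood above every receptor, and ERBB2 was the most abundant receptor. The union length counts the exons of all transcripts of a gene, so the order depends on that choice. Other lengths were not tried. The ranges of the control libraries overlapped between CBL and LRIG2, between ERRFI1 and ERBB4 and between EGFR and CBLB. Within a library, CBL was above LRIG2 and EGFR above CBLB in 4 of 4 controls, and in 15 and 16 of all 16 libraries. ERRFI1 was above ERBB4 in 3 of 4 controls and in 15 of all 16 libraries, and these neighbours cannot be ordered in control. ERBB3 rested on 3 to 24 counts per library after 6 h and cannot be measured with any precision there. After 24 h the first 4 places were again taken by LRIG2 (6.03 ± 0.33), LRIG3 (6.01 ± 0.59), LRIG1 (5.42 ± 0.40) and CBL (5.12 ± 0.87 FPM per kb), with overlapping ranges, and ERBB3 was again last at 0.169 ± 0.066. The tables of the 2 time points were normalised separately and differ in their share of U1 RNA, so levels are not compared between them.

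**Figure D1:**
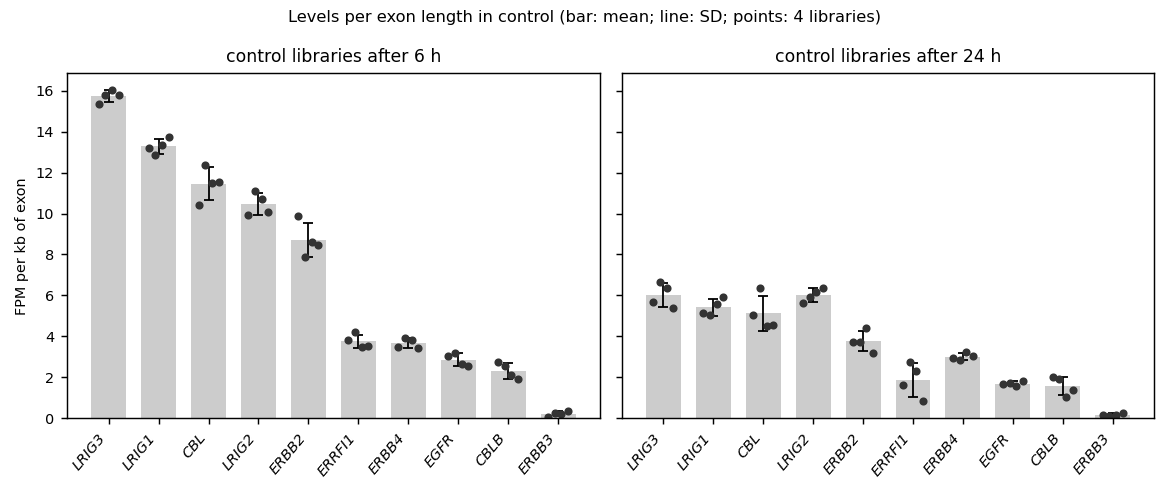
Levels of the 10 genes in control libraries, in FPM per kb of exon, after 6 h (left) and 24 h (right). Bars are means, lines are SD and points are the 4 libraries; the genes are in the 6 h order. LRIG3 leads at 15.7 after 6 h and ERBB3 is last at 0.221.

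Where the genes lie, and which exons they share with neighbours, bears on the counts, since strand use is not given in the sources used here. In GRCh37, EGFR is at 7:55086710-55279321 (plus strand), ERBB2 at 17:37844167-37886679 (plus), ERBB3 at 12:56470583-56497289 (plus) and ERBB4 at 2:212240442-213403565 (minus). ERRFI1 is at 1:8064464-8086369 (minus), LRIG1 at 3:66429221-66551687 (minus), LRIG2 at 1:113615820-113674882 (plus), LRIG3 at 12:59265931-59314285 (minus), CBL at 11:119077008-119184636 (plus) and CBLB at 3:105374305-105588396 (minus). SLC25A26, on the opposite strand, shares 37.9% of the LRIG1 exon bases, so reads of the 2 genes could be mixed; it had 81 to 174 counts itself after 6 h, where LRIG1 had 385 to 738. The antisense transcript EGFR-AS1 shares 1.17% of the EGFR exon bases and had 0 to 12 counts after 6 h, against 150 to 530 for EGFR. MCAM shares 4.34% of the exon bases of CBL and had 195 to 393 counts after 6 h, against 527 to 1556 for CBL. MIEN1 (20 to 65 counts after 6 h) and PGAP3 (45 to 84) share 5.53% and 1.395% of the exon bases of ERBB2, which had 289 to 642. RLIMP2, with 0 counts in every library, shares 12.5% of those of LRIG2.

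EGF raised the transcripts of its own receptor (1.27-fold) and of CBL (1.25-fold) after 6 h by adjusted p, both under 1.5-fold. A gene was called regulated at an adjusted p under 0.05 (edgeR, Benjamini-Hochberg over all genes tested), a fold change above 1.5 and an FPM above 5. By this rule 0 of the 10 genes were called with EGF after 6 h, where 1.73% of the 18618 genes tested were. By adjusted p alone, 2 of 10 were higher and 0 lower, against 5.97% of all genes tested (3.6% higher, 2.37% lower); DESeq2 also gave 2 of 10 (7.33% of all genes), and 4 of 10 had an unadjusted p under 0.05 (20.2% of all genes). The median log2 fold change of the 10 genes was -0.15, beside -0.01 over all genes tested. For 9 of the 10 the 95% interval lay within 1.5-fold in either direction, with ERBB3 as the exception.

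EGFR, the receptor for EGF, stood at 48.8, 50.7, 42.3 and 40.7 FPM in control, and at 56.1, 51.9, 59.7 and 64.3 FPM with EGF after 6 h. Every EGF library was above every control library, as for 6.61% of all genes tested. The log2 fold change was 0.35 ± 0.097 (SE), that is 1.27-fold (95% interval 1.11 to 1.46), with an adjusted p of 0.0319 (edgeR). The libraries fall into 2 runs of library numbers, each with 2 libraries of every group, and the difference was smaller in the first run (log2 ratio 0.12) than in the second (0.58). The adjusted p rose above 0.05, to as much as 0.118, without control library c09 or c10 or without EGF library c11 or c12, all of the second run.

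CBL, the ubiquitin ligase that targets EGFR, stood at 121.9, 145.0, 134.7 and 135.1 FPM in control and at 157.1, 155.6, 172.2 and 188.7 FPM with EGF. The groups did not overlap, again as for 6.61% of all genes in this direction. The log2 fold change was 0.33 ± 0.076 (SE), or 1.25-fold with a 95% interval of 1.13 to 1.398 (edgeR adjusted p = 0.00975). CBL was higher in both runs of library numbers (log2 ratios 0.23 and 0.42), and its adjusted p stayed under 0.05 with any library left out. CBLB, its paralogue, did not pass the test: 33.8, 31.3, 25.7 and 23.5 FPM in control against 27.0, 24.5, 23.4 and 19.8 FPM with EGF, a log2 difference of -0.27 ± 0.14 (edgeR adjusted p = 0.295).

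ERRFI1, the kinase inhibitor, had 15.96, 17.5, 14.6 and 14.7 FPM in control and 17.5, 18.8, 19.3 and 20.4 FPM with EGF. The groups overlapped by 1 library, and the log2 difference of 0.28 ± 0.12 (SE; 95% interval 0.03 to 0.52) had an edgeR adjusted p of 0.188.

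The 3 LRIG transcripts had negative log2 differences with EGF after 6 h, and none passed the test. LRIG1, which lowers ERBB receptor levels, stood at 93.0, 90.6, 93.9 and 96.6 FPM in control and at 78.2, 76.5, 81.4 and 89.5 FPM with EGF. These groups did not overlap, but the log2 difference of -0.20 ± 0.076 had an edgeR adjusted p of 0.135. LRIG3 did not overlap either (90.2 to 94.3 FPM in control, 83.2 to 89.4 FPM with EGF), with a log2 difference of -0.11 ± 0.066 and an edgeR adjusted p of 0.37. Of all genes tested, 5.43% were lower with no overlap and 6.61% higher with no overlap. LRIG2 had a log2 difference of -0.15 ± 0.076 (edgeR adjusted p = 0.27).

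The other receptors did not pass the test either. ERBB2 was at 81.5 to 102.0 FPM in control and at 73.1 to 84.9 FPM with EGF (log2 difference -0.16 ± 0.087, edgeR adjusted p = 0.295), and ERBB4 at 45.0 to 51.2 FPM and 38.6 to 47.7 FPM (-0.16 ± 0.10, adjusted p = 0.403). ERBB3, with a log2 difference of -0.86 ± 0.46, had a 95% interval from -1.82 to 0.09, so a change could not be detected at this depth.

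EGFR made up 18.5% ± 1.7 of the summed receptor FPM per kb in control and 24.5% ± 2.0 with EGF after 6 h (SD, n = 4). The difference of 6.04 percentage points had the smallest p that an exact two-sided permutation test of 4 against 4 can give (0.029), which is 0.087 after adjustment over the 6 shares tested. ERBB2 held 56.3% ± 3.5 in control and 52.3% ± 3.2 with EGF, and ERBB4 23.8% ± 2.1 and 22.3% ± 2.3.

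**Figure D2:**
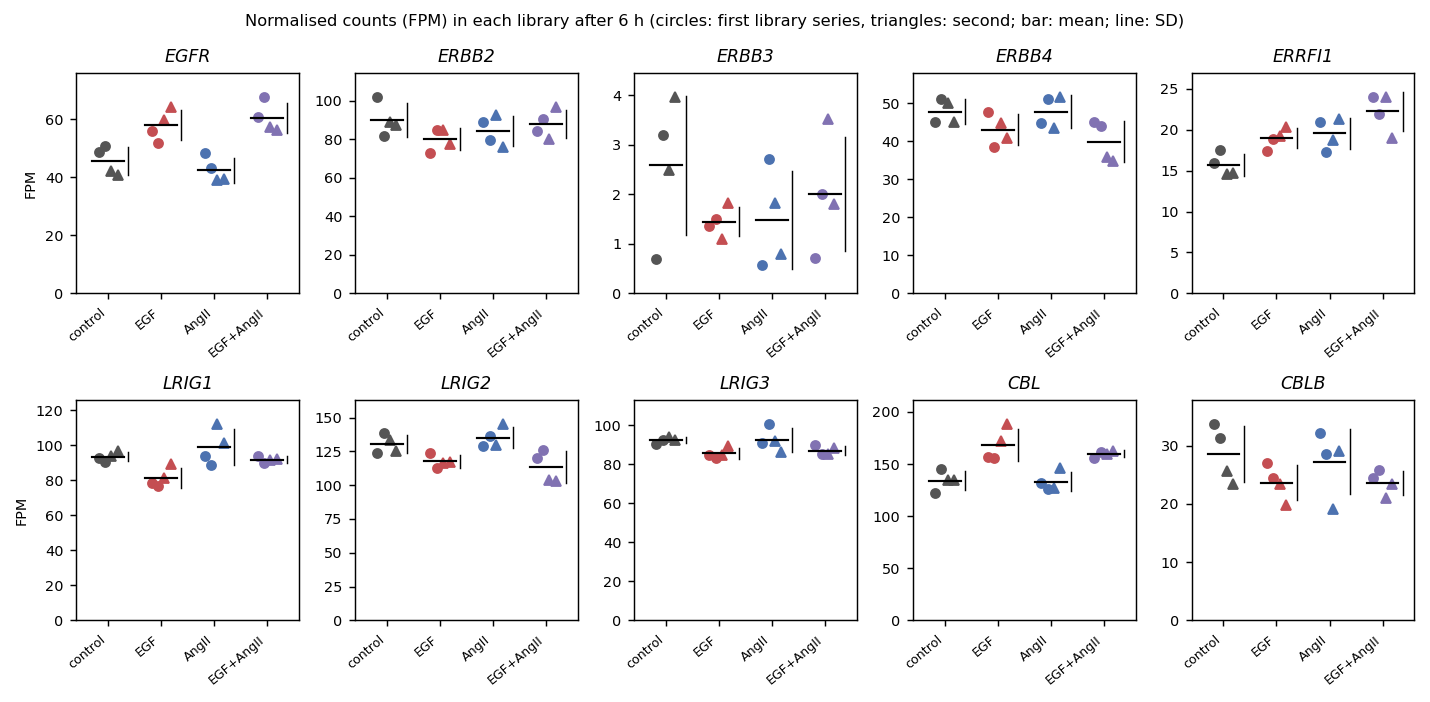
FPM of each gene in every library after 6 h, from 0, in the 4 conditions; circles and triangles are the first and second run of library numbers, bars are means and lines SD. EGFR and CBL are higher in all EGF and EGF+AngII libraries than in all controls, and ERRFI1 in all EGF+AngII libraries. Of all genes tested, 6.61% are higher with no overlap with EGF and 6.77% with EGF+AngII.

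AngII alone changed none of the 10 transcripts past the test after 6 h: 0 of 10 were called, by edgeR as by DESeq2, and 0% of all genes tested were. One gene, ERRFI1, had an unadjusted p under 0.05 (4.54% of all genes). EGFR with AngII was at 48.3, 43.2, 39.0 and 39.4 FPM, within or just under the control range, with a log2 difference of -0.10 and a 95% interval from -0.31 to 0.11 (edgeR adjusted p = 0.987). CBL with AngII was at 131.6, 126.4, 127.4 and 146.2 FPM, across the control range (log2 difference -0.02, 95% interval -0.18 to 0.14). ERRFI1 with AngII was at 20.9, 17.3, 18.7 and 21.3 FPM, overlapping control by 1 library, with a log2 difference of 0.31 ± 0.12 (edgeR unadjusted p = 0.019, adjusted p = 0.987). The intervals of 9 of the 10 genes lay within 1.5-fold, ERBB3 excepted.

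With EGF+AngII, EGFR, CBL and ERRFI1 were higher than in control after 6 h. The full rule called 0 of 10 (1.95% of all genes tested). By adjusted p alone 3 of 10 were higher and 0 lower, against 6.1% of all genes (4% higher, 2.11% lower), and DESeq2 gave the same 3 (6.97%). At an unadjusted p under 0.05 in edgeR there were 5 of 10 (18.9% of all genes), with ERBB4 and LRIG2 as the lower ones. Each of the 3 lay above all controls, as 6.77% of all genes did. The median log2 fold change of the 10 was -0.06 and that of all genes -0.01. EGFR stood at 60.8, 67.7, 57.4 and 56.2 FPM, above every control library (log2 fold change 0.41 ± 0.098 SE, 1.33-fold, 95% interval 1.15 to 1.52, edgeR adjusted p = 0.0123), by 0.37 and 0.45 in the 2 runs of library numbers. Its adjusted p was above 0.05, at up to 0.0526, without EGF+AngII library c08 or control library c10.

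ERRFI1 was at 23.9, 21.98, 24.01 and 18.9 FPM with EGF+AngII, again above every control library. Its log2 fold change of 0.50 ± 0.12 (SE), or 1.41-fold with a 95% interval of 1.19 to 1.67, had an edgeR adjusted p of 0.0109 and stayed past the threshold with any library left out. The rise was seen in both runs of library numbers (0.45 and 0.55). CBL stood at 155.7, 161.6, 159.6 and 162.9 FPM, a narrow range above all controls, with a log2 fold change of 0.25 ± 0.076 (1.19-fold, edgeR adjusted p = 0.0496). This value lies at the threshold. With no low-count filter the adjusted p was 0.0517, and with DESeq2's size factors it was also above 0.05. With 1 library left out it was above 0.05 in 11 of 16 fits, at up to 0.106.

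The remaining 7 genes did not pass the test with EGF+AngII. Their log2 differences ran from -0.38 for ERBB3 to -0.03 for LRIG1. ERBB4 stood at 45.0, 43.95, 35.9 and 34.9 FPM against 45.0 to 51.2 FPM in control (-0.27 ± 0.10, edgeR adjusted p = 0.137), and LRIG2 at 120.3, 126.0, 103.8 and 102.9 FPM against 124.0 to 138.4 FPM (-0.21 ± 0.077, adjusted p = 0.127). In both genes the 2 libraries of the second run were the low ones. LRIG3 did not overlap control (85.1 to 89.9 against 90.2 to 94.3 FPM, a log2 difference of -0.09, edgeR adjusted p = 0.533), as for 5.37% of all genes. LRIG1, at 94.0, 89.7, 91.5 and 92.0 FPM, lay within the control range except for 1 library. EGFR held 24.4% ± 1.4 of the receptor FPM per kb (SD, n = 4), 5.92 percentage points above control (exact permutation p = 0.029, the smallest possible, 0.087 adjusted over 6).

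Adding AngII to EGF made no difference that passed the test. Between EGF+AngII and EGF after 6 h 0 of 10 genes and 0% of all genes were past the adjusted p in edgeR, and 0 of 10 in DESeq2 (0.00537%); LRIG1 had an unadjusted p under 0.05, as did 7.26% of all genes. EGFR differed by 0.06 on the log2 scale, with a 95% interval from -0.14 to 0.25, and CBL by -0.07 (-0.23 to 0.08), so a further change of 1.5-fold lay outside both intervals. ERRFI1 was higher by 0.22 with an interval from -0.01 to 0.46 (edgeR adjusted p = 0.683). LRIG1 was higher with EGF+AngII in every library than with EGF alone (log2 difference 0.17 ± 0.076, edgeR adjusted p = 0.677), as were 2.85% of all genes, while 0 of 10 were lower in every library (2.73%).

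The interaction, the EGF+AngII effect minus the sum of the single effects on the log2 scale, was also past the threshold for 0 of 10 genes and 0% of all genes; DESeq2 gave 0 of 10 (0.00537% of all genes), and 0 of the 10 had an unadjusted p under 0.05, against 8.01% of all genes. It was 0.16 for EGFR (95% interval -0.13 to 0.44), -0.06 for CBL (-0.28 to 0.17) and -0.08 for ERRFI1 (-0.42 to 0.26).

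Adding EGF to AngII was compared next, with the EGF+AngII libraries already used above. The full rule called 0 of 10 (1.87% of all genes). By adjusted p EGFR (log2 fold change 0.51, adjusted p = 0.00207) and CBL (0.27, adjusted p = 0.0356) were higher and LRIG2 (-0.25, adjusted p = 0.0498) was lower, 3 of 10 against 5.93% of all genes by edgeR (3.92% higher, 2.01% lower) and 3 of 10 against 7.02% by DESeq2; 4 of 10 had an unadjusted p under 0.05 (19.6%). EGFR and CBL were higher with no overlap (7.12% of all genes) and LRIG2 lower with no overlap (5.64%). LRIG2 passed the threshold by little, and in 14 of 16 fits with a library left out it did not.

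**Figure D3:**
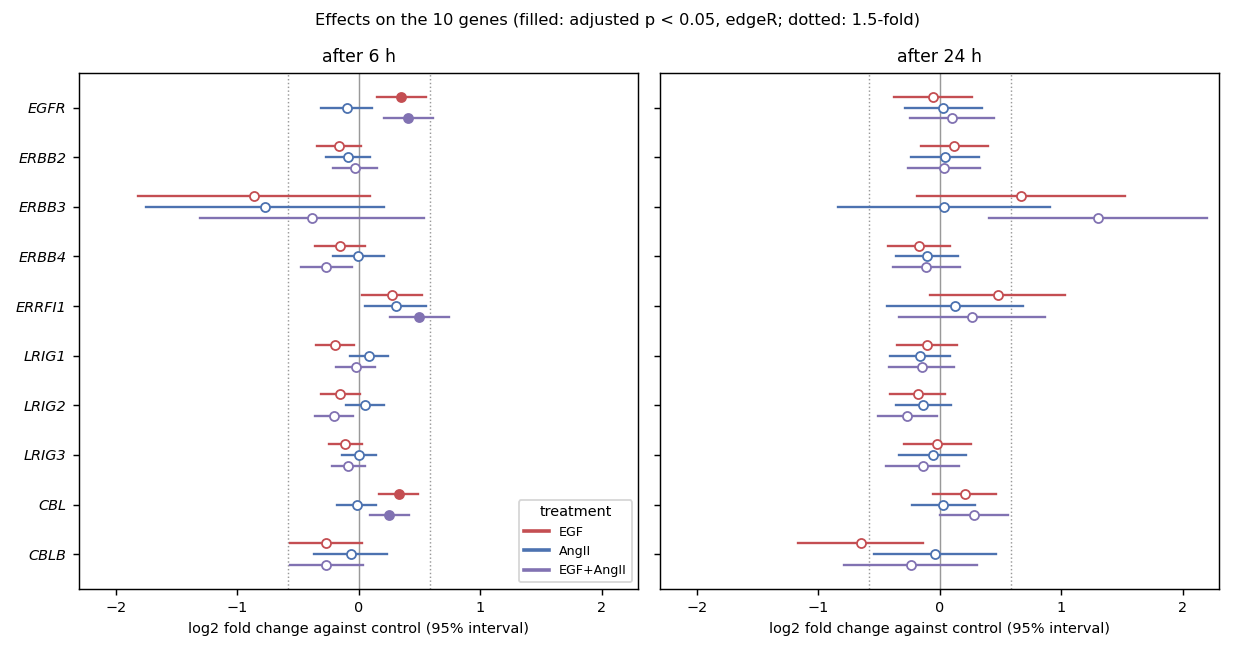
Log2 fold changes against control of the 10 genes with their 95% intervals, after 6 h (left) and 24 h (right), for EGF, AngII and EGF+AngII. Filled points, at EGFR, CBL and ERRFI1 after 6 h, have an edgeR adjusted p under 0.05; dotted lines mark 1.5-fold.

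The balance of inhibitor to receptor was followed as the log2 ratio of ERRFI1 to EGFR counts within each library, which does not depend on library size. It was -1.54 ± 0.06 in control after 6 h, -1.61 ± 0.10 with EGF, -1.12 ± 0.19 with AngII and -1.45 ± 0.18 with EGF+AngII (SD, n = 4 each). With EGF and with EGF+AngII the ratio differed from control by -0.07 and 0.09 (exact two-sided permutation p = 0.29 and 0.4). With AngII it was higher by 0.42, with no overlap; the exact permutation p of 0.029 is the smallest that 4 against 4 libraries allow, and it was 0.17 after adjustment over the 6 ratios. After 24 h the differences were 0.70 with EGF, 0.23 with AngII and 0.27 with EGF+AngII, none past the test (exact permutation p = 0.23, 0.74 and 0.74). One control library, b10, had 61 ERRFI1 counts beside 507 of EGFR, and without it the differences were 0.32 with EGF, -0.15 with AngII and -0.10 with EGF+AngII.

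After 24 h none of the 10 genes passed the test with any stimulus. With EGF, 0 of 10 were called in edgeR (0.0316% of the 22174 genes tested). DESeq2 put 0 of 10 past its adjusted p, against 0.437% of all genes. Only CBLB had an edgeR unadjusted p under 0.05 (8.48% of all genes). With AngII 0 of 10 were called (0% of all genes) and 0 had an unadjusted p under 0.05 (2.49%). With EGF+AngII 0 of 10 were called (0.0271%), and ERBB3, LRIG2 and CBL had an unadjusted p under 0.05 (5.4%). EGF+AngII against EGF called 0 of 10 (0% of all genes; 0 at an unadjusted p under 0.05, against 3.37%). EGF+AngII against AngII called 0 of 10 (0.0406%), with ERBB3 at an unadjusted p under 0.05 (4.28%). The interaction called 0 of 10 (0%).

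EGFR was at 26.6, 27.7, 24.8 and 29.1 FPM in control after 24 h and at 18.0, 25.2, 32.8 and 27.5 FPM with EGF. The EGF libraries spread around the controls on both sides. The log2 difference was -0.06, with a 95% interval from -0.38 to 0.26, and with EGF+AngII (30.2, 26.2 and 30.2 FPM) it was 0.10 with an interval from -0.25 to 0.44. CBL was at 59.1, 74.8, 52.6 and 53.6 FPM in control and at 80.7, 65.1 and 72.5 FPM with EGF+AngII, a log2 difference of 0.28 ± 0.13 (edgeR adjusted p = 0.921). ERRFI1 ranged from 3.51 to 11.4 FPM in control and from 9.20 to 12.5 FPM with EGF (log2 difference 0.48 ± 0.27, edgeR adjusted p = 0.678).

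CBLB was at 24.5, 23.3, 12.96 and 16.8 FPM in control and at 5.77, 12.3, 17.2 and 13.3 FPM with EGF after 24 h. The log2 difference of -0.65 ± 0.25 had an edgeR adjusted p of 0.459. In the first run of library numbers, which holds EGF library b03 with 50 counts, the log2 ratio was -1.402, and in the second it was 0.03. ERBB3 was at 8.33, 3.14 and 3.14 FPM with EGF+AngII, the first of them (b07) from 141 counts, against 1.33 to 3.10 FPM in control. Its log2 difference of 1.304 ± 0.43 (edgeR adjusted p = 0.666) ran from 0.66 to 1.61 with 1 library left out. LRIG2 was lower in all 3 EGF+AngII libraries (61.8, 64.05 and 61.5 FPM) than in the controls (70.2, 73.8, 76.9 and 79.6 FPM), by -0.27 ± 0.12 on the log2 scale (edgeR adjusted p = 0.906); 3.19% of all genes were lower with no overlap and 3.99% higher.

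**Figure D4:**
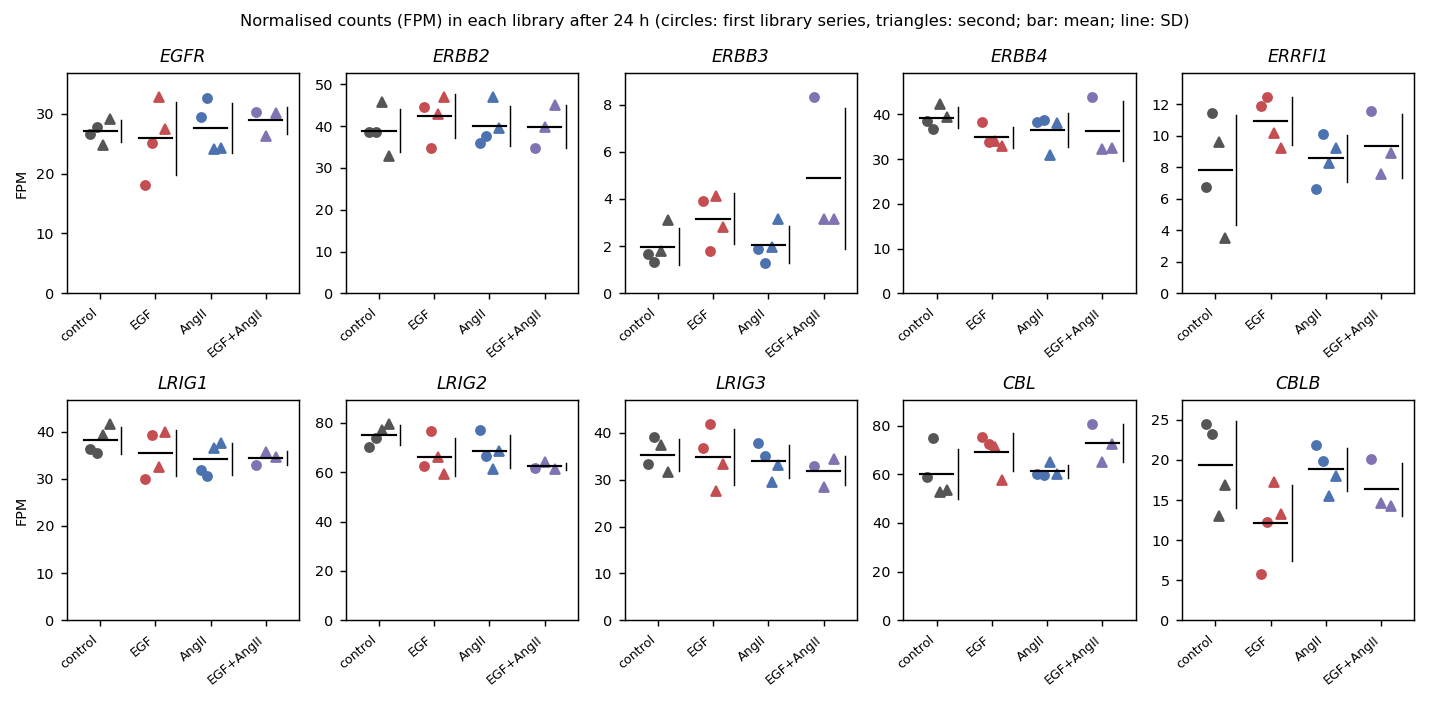
FPM of each gene in every library after 24 h, from 0, drawn as for 6 h; EGF+AngII has 3 libraries. The conditions overlap for most genes; the 1 high ERBB3 library with EGF+AngII is at 8.33 FPM and the lowest CBLB library with EGF at 5.77 FPM.

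One fit over both tables tested whether the effects differed between 6 h and 24 h. None of the 30 tests (10 genes, 3 stimuli) was past an adjusted p of 0.05 in edgeR, where 0.173% of 21932 genes differed for EGF, 0% for AngII and 0.123% for EGF+AngII. The EGF effect on EGFR after 24 h minus that after 6 h was -0.40 ± 0.18 on the log2 scale (unadjusted p = 0.032, edgeR adjusted p = 0.439), so the effects at the 2 times are not shown to differ. For CBL the corresponding difference was -0.13 ± 0.15 (edgeR adjusted p = 0.821) and for ERRFI1 with EGF+AngII -0.25 ± 0.31 (adjusted p = 0.919).

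Other genes of the pathway were described from 4 lists, which were chosen with earlier results of these data known. Of 18 further feedback inhibitors of the EGFR-ERK pathway, such as the Sprouty, SPRED and dual-specificity phosphatase genes, 15 were tested. With EGF after 6 h, 6 were higher and 1 lower past the adjusted p (5.97% of all genes tested). The full rule called 5 (1.73% of all genes). DUSP5, a nuclear ERK phosphatase, rose by 1.60 ± 0.26 on the log2 scale, and SPRED1 by 0.98 ± 0.11, DUSP4 by 0.79 ± 0.18 and SPRY2 by 0.75 ± 0.14. SPRED2, an inhibitor of RAS to ERK signalling, rose 2.83-fold (edgeR adjusted p = 4.59e-10). The lower gene was TNK2 (-0.55 ± 0.12, edgeR adjusted p = 0.0082), named here after its value was seen, which encodes a kinase that binds EGFR. With EGF+AngII 6 of these 15 were called, against 1.95% of all genes, all higher, led by DUSP5 (1.83 ± 0.25) and SPRED2 (1.52 ± 0.096). The median log2 fold change of the list was 0.18 with EGF and 0.13 with EGF+AngII.

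In the endocytosis and ubiquitin list, 21 of 23 genes were tested and 1 was called with EGF and with EGF+AngII (1.73% and 1.95% of all genes). This gene, UBASH3B, which encodes a protein that binds CBL, rose by 1.07 ± 0.16 and by 1.15 ± 0.16 on the log2 scale (2.10-fold and 2.21-fold). Of 21 adaptors and effectors next to the receptor, 17 were tested and 0 passed with EGF or EGF+AngII in edgeR (5.97% and 6.1% of all genes). An unadjusted p under 0.05 was found for 2 and 1 of the 17, against 20.2% and 18.9% of all genes. Of the 11 ERBB ligand genes only 2 had enough counts to be tested after 6 h, and 0 of them passed (0 at an unadjusted p under 0.05). AngII moved 0 genes of these lists past the test (0% of all genes), with 1 at an unadjusted p under 0.05 among the feedback inhibitors (4.54% of all genes). After 24 h 0 list genes passed with EGF, AngII or EGF+AngII against control (0.0316%, 0% and 0.0271% of all genes). One, SPRED2, was higher with EGF+AngII than with AngII (1.11 ± 0.16), where 0.0451% of all genes passed.

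**Figure D5:**
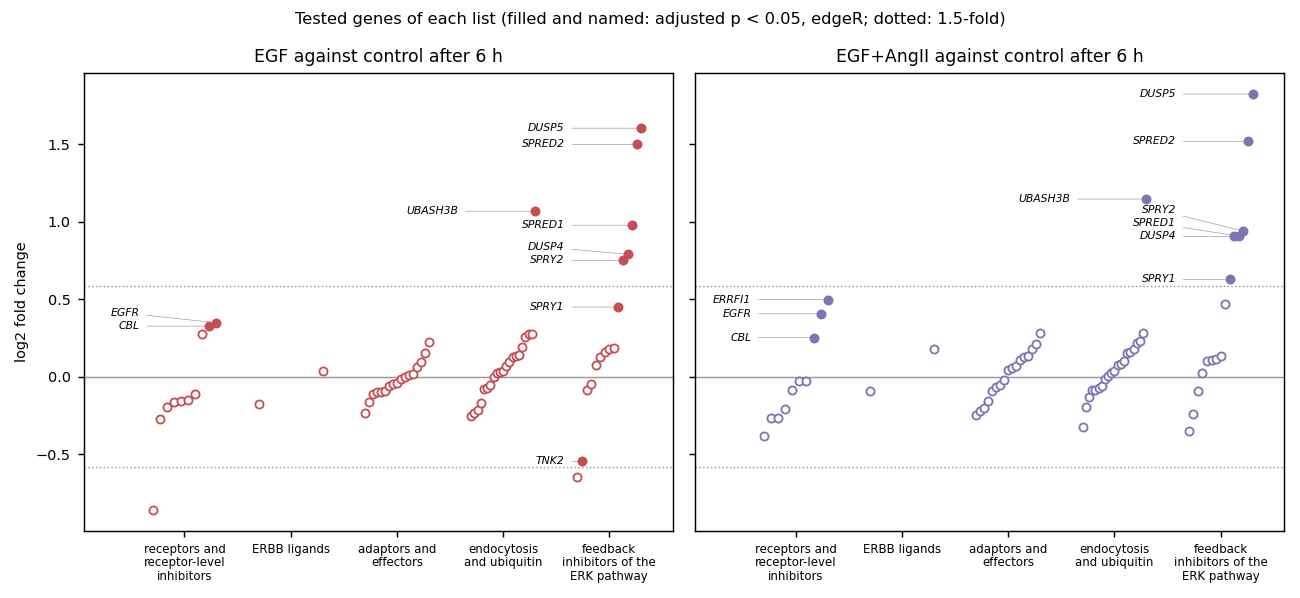
Log2 fold changes of the tested genes of each list with EGF (left) and EGF+AngII (right) against control after 6 h. Filled, named points have an edgeR adjusted p under 0.05; DUSP5 reaches 1.60 and 1.83, while EGFR, CBL and ERRFI1 stay under the dotted line at 1.5-fold.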

How the data were processed

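RNA was isolated with TriZol and treated with DNase, ribosomal RNA was removed with RiboMinus, and libraries were sequenced in pairs on a HiSeq2000. Per the labels, the authors trimmed reads with Trim Galore and cutadapt 1.8.1, mapped them to hg19 with TopHat2 2.0.14 and deposited the counts per gene from featureCounts 1.4.6; the deposited design text names HISAT2 as the mapper. Strand use is not given in the sources used here. Of the 15 columns after 24 h, 8 are named as filtered, with no explanation. These are all columns of the first run of library numbers and, in the second run, that of EGF+AngII library b15. Apart from b15, the 2 runs after 24 h therefore cannot be told apart from this filtering. Library b08, labelled EGF+AngII, was not analysed here, as no column of counts was mapped to it. The comparisons planned with 4 libraries in that group were run with 3.

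Groups came from the sample labels. After filterByExpr, each time point was fitted over all 4 conditions with edgeR 4.0.16 (TMM, quasi-likelihood F test; R 4.3.3), and FPM used the TMM library sizes. A call needed an adjusted p (Benjamini-Hochberg over all genes tested) under 0.05, more than 1.5-fold change and more than 5 FPM on average in the higher group's libraries. Intervals are at 95%. Ratios and receptor shares were compared with exact two-sided permutation tests (scipy 1.17.1). Alternatives were DESeq2 1.42.0, its size factors, no filter on low counts, protein-coding genes only, a term for the run of library numbers, no fold or FPM filter, and each library left out. The scripts were tested on simulated counts.

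All 10 genes are named; of the pathway lists, those called in the comparison, at most 6 per list. Similar genes were to be named only for a called gene, and none was called. The genes and lists were chosen with earlier results of these data known. Exon lengths came from GENCODE for GRCh37 and promoters from RefSeq for GRCh38.p14; their coordinates were not converted. The ERBB3 values rest on few counts.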

Additional observations from a re-analysis of the deposited data

Results flagged for a closer look

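In 70 groups of 4 libraries, 2 had a library far from the other 3 by Dixon's criterion, where chance at 1 in 20 gives 3.5. Both concern AngII library b13 after 24 h. ERBB4 was at 30.8 FPM there and at 37.97 to 38.6 FPM in the other 3 libraries (gap over range 0.916), and CBL was at 65.2 FPM against 59.8 to 60.0 FPM (0.967). In this library U1 RNA held 57.2% of the counts and protein-coding genes 20.8%. Its part in these values was not tested.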

How the results depend on the processing

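No paired analysis was run: libraries are numbered straight through each time point, and replicate numbers within the groups were not taken as pairs. A term for the run of library numbers was fitted instead. By adjusted p alone, with no fold or FPM filter, the number of genes past the test after 6 h went from 0 to 2 with EGF, 3 with EGF+AngII and 3 for EGF+AngII against AngII. Under every other alternative the number called was 0 in each comparison, at both times. The ERRFI1 to EGFR ratio with AngII after 6 h kept its difference of 0.42 when permuted within the runs of library numbers, with a p of 0.056, the smallest possible there; with 1 library left out it was 0.34 to 0.48, where an exact test cannot go below 0.057. After 24 h that ratio ran from 0.32 to 0.91 with EGF, from -0.15 to 0.44 with AngII and from -0.10 to 0.49 with EGF+AngII when 1 library was left out, the last 2 turning negative and the first lowest without control library b10. Of 20 differences of single genes with an unadjusted p under 0.05, 8 were past the adjusted p. In 415 recomputed values 0 changed sign, 0 gained and 42 lost the threshold. CBL with EGF, ERRFI1 with EGF+AngII and EGFR for EGF+AngII against AngII held in all. CBL for EGF+AngII against control was at 0.0517 at most outside the left-out libraries, and for EGF+AngII against AngII it lost the threshold in 7 fits with 1 library left out (up to 0.128). LRIG2 for EGF+AngII against AngII lost it in 16 of 21. A term for the run of library numbers ended no call among them. Few counts limit ERBB3, and the spread between libraries limits the 24 h comparisons.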
